A study of Saccharomyces cerevisiae with 10 samples.

Results

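The middle of a 10-hour course of filamentous growth was set against its beginning and end in budding yeast, Saccharomyces cerevisiae. The middle hours were the 4 arrays of hours 4, 5, 6 and 7, and the end hours were the 4 arrays of hours 1, 2, 9 and 10, so that 8 of the 10 arrays of the course were compared and each side held 2 odd and 2 even hours. The arrays of hours 3 and 8 lie between the sides and are only described. The arrays were chosen by their labelled hour alone. Every array carried RNA of wild-type diploid cells that had first grown as yeast form in liquid SHAD, which has ample glucose and ammonium, and were then placed on SLAD, an agar medium low in ammonium, for the stated number of hours. Each array also carried RNA of yeast-form cells, which is the comparator of both sides and not a group of its own. The strain background, the number of cultures and whether 1 yeast-form extract served all arrays are not given here by the labels. Each hour had a single array, and the labels do not say whether cultures were separate. The p-values therefore measure only the spread between arrays. That spread may be technical, and it also holds any change between the hours of a side, such as from hours 1 and 2 to hours 9 and 10.

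On agar poor in ammonium, diploid yeast grow as chains of elongated cells that stay attached and reach into the agar. A MAP kinase cascade that acts through Kss1, Ste12 and Tec1, and the cyclic AMP pathway, which acts through Flo8, drive this form and control the adhesin Flo11. A move between media is also known to shift genes of ribosome synthesis and genes of stress and respiration in opposite directions for a time.

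Values are log2 ratios, most likely of filamentous over yeast form, with the median of each array set to 0. This direction is not stated and rests on which RNA the labels list as the first channel, and turning it would exchange higher and lower throughout. Of 6292 open reading frames (ORFs), 5752 had 3 or more values on each side and were tested, 5048 of them with all 8 values. The number of usable values was 5903 ± 113 (SD, n = 4) on the middle arrays and 5991 ± 51.6 (n = 4) on the end arrays (exact two-sided permutation p = 0.257), and the spread of the ratios was 1.14 ± 0.063 and 1.14 ± 0.061 (exact permutation p = 0.886). The smallest p that 4 arrays against 4 allow is 0.0286. Pairs of arrays of the same kind of hour, odd or even, were more alike than mixed pairs on each side, with mean Pearson's r across 4956 ORFs of 0.70 (2 pairs) against 0.53 (4 pairs) in the middle and 0.62 (2 pairs) against 0.53 (4 pairs) at the ends. A middle and an end array of the same kind had a mean r of 0.64 (8 pairs), and of different kinds 0.50 (8 pairs). These values describe the arrays, since ORFs are not independent replicates, and odd or even hour was a term in the fits reported next.

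The first question was which genes peaked or dipped in mid course. In limma's moderated test, 0 of 5752 ORFs (0%) passed at an adjusted p under 0.05, and the smallest adjusted p was 0.32, shared by the copper transporter gene CTR1, the mitochondrial GTPase gene MTG2 and the glycosyltransferase gene GNT1. GNT1, named after its values were seen, had 3 middle values and a difference of 2.69 ± 0.38. At an unadjusted p under 0.05, 221 ORFs (3.84%) were on the higher side and 238 (4.14%) on the lower side in the middle hours, 7.98% together. These counts depended on single arrays. They were 137 and 155 without hour 5 and 386 and 363 without hour 9. The median standard error of a difference was 0.36 and the median distance from a difference to the limit of its 95% interval was 0.84, so that differences well under a doubling were not measurable for most genes at this number of arrays. Over all ORFs tested the median difference was 0.02, with a 5th percentile of -0.95 and a 95th percentile of 0.90. RNA came from whole cultures, so fewer cells that hold a transcript and less of it per cell cannot be told apart.

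All 4 middle arrays lay above all 4 end arrays for 125 of the 5048 ORFs with 8 values (2.48%), and below them for 136 (2.69%). Among the 125, the highest array was hour 4 for 25 ORFs, hour 5 for 33, hour 6 for 38 and hour 7 for 29. Among the 136, the lowest array was hour 4 for 36, hour 5 for 45, hour 6 for 31 and hour 7 for 24. The choice of these ORFs places their extreme among the 8 compared arrays in hours 4 to 7, and hours 3 and 8 were not counted. These counts therefore do not show when an ORF peaked or dipped over the whole course. A higher ratio in mid course was not always a ratio above the array median. Of the 125, 50 lay below 0 at the ends and above it in the middle, 25 lay above 0 on both sides and 50 below 0 on both sides, and of the 136 the corresponding counts for a dip were 47 across 0, 52 above and 37 below. Hours 3 and 8 took no part in choosing these ORFs. Their mean was nearer to the middle than to the ends for 77 of the 125 and for 63 of the 136, so not for most of the 136. No such count was made over all ORFs, so these counts do not show a shape. The genes named next are those with the largest differences among these ORFs, 15 in each direction. They were picked for their values, none passed the adjusted test, and their not overlapping is no finding.

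CTR1, the high-affinity copper transporter of the plasma membrane, had the largest difference of the 15 on the higher side. It was at 1.84, 2.52, 3.14 and 1.93 at hours 4, 5, 6 and 7 and at -0.47, 0.60, -0.62 and -0.61 at hours 1, 2, 9 and 10. The peak was at hour 6, and hours 3 and 8, at -1.37 and 0.38, lay outside the range of the middle hours. The difference was 2.63 ± 0.40 (standard error, limma), which is 6.2-fold, with an adjusted p of 0.32, and it was 2.77 within odd and 2.50 within even hours. MTG2, a GTPase that helps build the large subunit of the mitochondrial ribosome, was at 2.34, 1.47, 1.38 and 1.45 in the middle and at -0.90, 0.0032, -0.23 and -0.27 at the ends, a difference of 2.01 ± 0.30 (adjusted p = 0.32). Hour 4 stood above the other middle hours, which lay close together. OAR1, an enzyme of mitochondrial fatty acid synthesis, was at 0.95, 0.41, 0.46 and 1.67 in the middle and at -1.23, 0.28, -0.46 and -0.70 at the ends, with a difference of 1.40 ± 0.42.

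RTT103, which binds the tail of RNA polymerase II at the end of genes, was at 4.05, 2.56, 3.22 and 2.09 in the middle and at 0.68, 1.23, 0.87 and 0.41 at the ends, a difference of 2.18 ± 0.38 (adjusted p = 0.372). Its ratio was above 0 on all 8 arrays, and at hour 8 it was still 3.04. MPP6, a cofactor of the nuclear exosome, was at 0.62, 0.98, 1.13 and 1.18 and at -0.11, -0.20, -0.61 and -0.74, crossing 0 between middle and ends, with a difference of 1.39 ± 0.27. RRP15, a factor of ribosomal RNA processing, had a difference of 1.54 ± 0.38, but 2.25 within odd and 0.82 within even hours, and its highest value of the whole course, 1.38, was at hour 3. SYF2, of the spliceosome, was at 0.037, 1.16, 0.67 and 1.05 and at -0.080, -0.17, -1.84 and -0.89 (1.47 ± 0.46), and hours 9 and 10 were its lowest.

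ACM1, an inhibitor of the anaphase-promoting complex with Cdh1, was at 2.26, 0.50, 1.65 and 2.75 in the middle and at -0.32, 0.026, -0.46 and -0.17 at the ends (2.02 ± 0.46), and hour 5 was low among its middle hours. BNI5, which links septins and myosin at the bud neck, was at 2.03, 1.93, 1.98 and 1.40 and at -0.34, 1.07, 0.040 and 0.48 (1.52 ± 0.29), with hour 2 the highest of the ends. SCD5, a protein of endocytosis and actin organisation, was at 1.83, 1.48, 2.18 and 1.65 and at -0.99, 0.94, -0.29 and -0.033 (1.87 ± 0.33). All 3 were above 0 on every middle array. TIP1, a cell wall mannoprotein, was at 1.39, 1.95, 1.89 and 2.48 and at -0.090, 0.78, 0.82 and 0.19 (1.50 ± 0.34). PAC1, a dynein factor related to mammalian LIS1, was below 0 on 7 of the 8 arrays, with hour 4 at 1.04, and its difference of 1.56 ± 0.63 was 0.85 without hour 4. LMO1, an ELMO homologue, NPP1, a nucleotide pyrophosphatase, and IMO32 had differences of 1.63 ± 0.36, 1.47 ± 0.43 and 1.38 ± 0.44. IMO32 overlaps NAG1 in the RefSeq R64 annotation, so an array signal may mix the 2 genes. The adjusted p-values of these 15 genes in limma ran from 0.32 to 0.611.

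On the lower side, CIT3, a mitochondrial citrate and methylcitrate synthase, had the largest difference of the 15. It was at 0.11, 0.74, -0.017 and -0.083 at hours 4, 5, 6 and 7 and at 3.45, 3.26, 1.99 and 1.81 at hours 1, 2, 9 and 10, which is a difference of -2.44 ± 0.44 (5.42-fold, adjusted p = 0.372). The first hours were the highest, and the last hours were again above every middle hour. PRX1, a mitochondrial peroxiredoxin, was at 0.70, -0.68, 0.21 and 0.32 in the middle and at 1.70, 2.78, 0.83 and 1.54 at the ends (-1.57 ± 0.39). PET111, a translational activator of the cytochrome oxidase gene COX2, was at 0.51, 0.62, 0.23 and 0.63 and at 2.52, 2.22, 1.79 and 1.39 (-1.48 ± 0.30). PET111 stayed above 0 throughout, with little spread among its middle hours. CYT2, which attaches heme to cytochrome c1, had a difference of -1.50 ± 0.52 that was -0.97 without hour 9, where it was at 2.86.

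DDR2, a gene induced by many stresses, was at -0.26, -0.67, -0.74 and -0.093 in the middle and at 1.66, 2.15, 0.97 and 1.49 at the ends, a difference of -2.01 ± 0.32 (adjusted p = 0.324). HOR7, a gene induced by high osmolarity, was at 0.37, 0.057, 0.20 and 0.16 and at 2.56, 1.81, 1.18 and 1.46 (-1.55 ± 0.34). Both were near or below 0 in mid course and at 0.97 and 1.18 by hour 9, and the 4 middle arrays of HOR7 lay close together. PTP2, a tyrosine phosphatase that acts on the osmostress kinase Hog1, was at -0.56, -0.59, 1.07 and 1.14 and at 1.63, 2.52, 1.98 and 1.48 (-1.64 ± 0.51), and its middle hours formed a low pair, hours 4 and 5, and a high pair, hours 6 and 7. PRM15, a phosphoribomutase, was at 0.33, -0.62, -1.42 and -0.60 and at 2.33, 1.12, 0.63 and 1.63 (-2.01 ± 0.49).

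LSP1, a core component of the eisosomes of the plasma membrane, was at -0.30, 0.52, -0.0033 and 0.54 in the middle and at 2.48, 1.43, 1.26 and 2.39 at the ends (-1.70 ± 0.37). HFD1, a fatty aldehyde dehydrogenase, was at -1.70, -1.35, -1.55 and -0.66 and at 1.79, -0.16, 0.023 and -0.16 (-1.69 ± 0.40), with hour 1 far above the other end hours. ERG28, which holds enzymes of sterol synthesis together, was at -1.89, -1.52, -0.72 and 0.010 and at 0.85, 0.12, 0.19 and 0.49 (-1.44 ± 0.43). Hours 4 and 5 were its lowest and hour 7 had nearly reached the end hours. RCR1, a membrane protein that affects chitin in the wall, TPO4, a polyamine exporter, and 2 genes of autophagy, ATG2 and ATG19, had differences of -1.57 ± 0.40, -1.24 ± 0.29, -1.34 ± 0.50 and -1.27 ± 0.38. That of ATG2, a protein of the growing autophagosome, was -0.87 without hour 4, where it was at -1.61, far below its other middle hours. ATG19 is the receptor that brings aminopeptidase I to the vacuole. The adjusted p-values of the 15 lower genes in limma ran from 0.324 to 0.611.

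**Figure D1:**
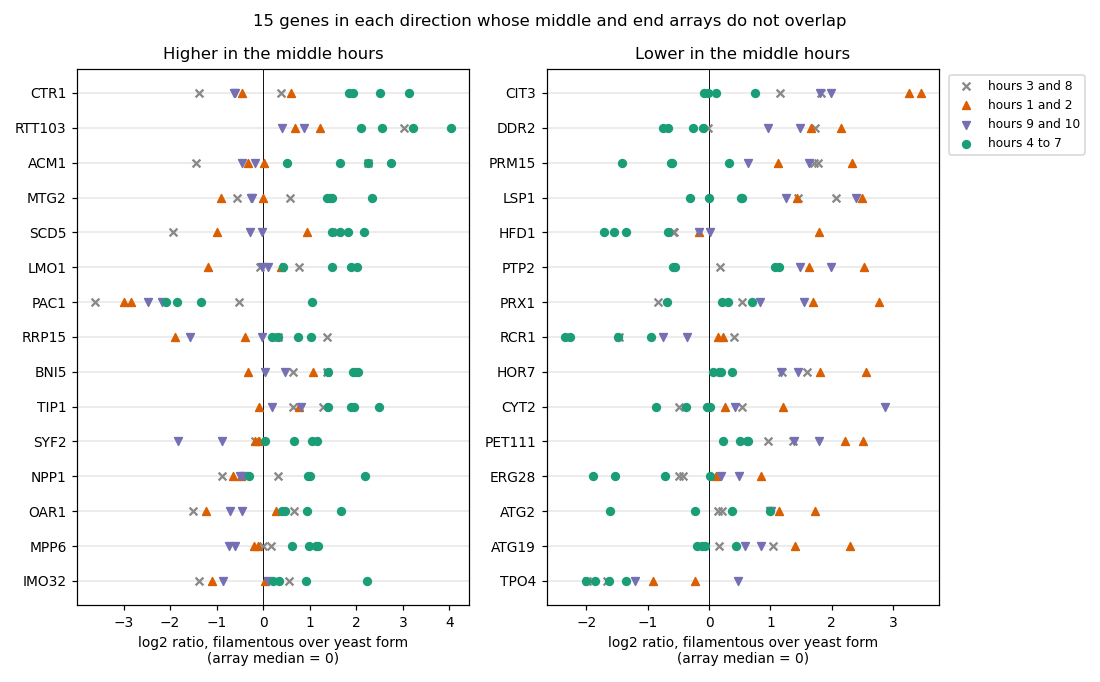
Log2 ratios (x axis, array median at 0) of the 15 genes with the largest differences in each direction among those whose middle and end arrays do not overlap, with 1 mark per array. Circles are hours 4 to 7, triangles hours 1, 2, 9 and 10, and crosses hours 3 and 8, and the circles of CTR1 lie between 1.84 and 3.14 while those of CIT3 lie between -0.083 and 0.74.

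The second question was from which end of the course the middle differed. The middle arrays were set against hours 1 and 2 and against hours 9 and 10 in a fit with 3 groups. Both contrasts use the same 4 middle arrays, so their values are only placed side by side. Neither gave a call in limma at an adjusted p under 0.05, with smallest adjusted p-values of 0.0901 and 0.543. At an unadjusted p under 0.05, 503 ORFs (8.74%) were on the higher and 400 (6.95%) on the lower side of hours 1 and 2, while 163 (2.83%) were on the higher and 198 (3.44%) on the lower side of hours 9 and 10. DDR2 was at -2.35 against the first and -1.67 against the last pair of hours, and CIT3 at -3.17 and -1.71. CTR1 stood at 2.29 and 2.98. Gene lists, 37 in all, are described next by how many members passed an unadjusted p under 0.05 and by the median difference of the members, without a test of the list. The shares over all ORFs given above are printed again beside these counts, and a list's count near such a share is no result about the list. No member passed an adjusted p under 0.05.

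Ergosterol is the main sterol of yeast membranes, and the list of its synthesis had a median difference of -0.55 over 26 members, against 0.02 over all ORFs. Of the 26, 23 had a difference below 0, 7 passed an unadjusted p under 0.05 on the lower and 1 on the higher side, beside 4.14% and 3.84% of all ORFs, and 4 of the 25 with 8 values had all middle arrays below all end arrays, beside 2.69% of all ORFs. The median was -0.58 against hours 1 and 2 and -0.63 against hours 9 and 10, and -0.58 within odd and -0.62 within even hours. By hour, the median ratio of the members was -1.23, -1.32, -0.82 and -0.57 at hours 4 to 7 and -0.070, -0.89, -0.49 and -0.40 at hours 1, 2, 9 and 10. Hours 4 and 5 were thus the lowest, hour 2 lay among the middle hours, and without hour 5 the median difference was -0.34.

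ERG9, squalene synthase, was at -0.81, -0.68, -0.74 and -0.18 in the middle and at 1.17, 0.20, 0.22 and 0.39 at the ends, a difference of -1.09 ± 0.29 (adjusted p = 0.583 in limma). ERG26, an enzyme that helps remove methyl groups from the sterol ring, was at -0.95, -1.34, -0.71 and -0.20 and at 0.80, 0.033, 0.17 and 0.34 (-1.14 ± 0.33). Both were below 0 on every middle array and above 0 on every end array. ERG25 and ERG27, which act with ERG26 in that step, had differences of -0.88 ± 0.32 and -0.82 ± 0.32, ERG28, their scaffold, of -1.44, and ERG5, a sterol desaturase, of -0.87 ± 0.28. ERG20, farnesyl pyrophosphate synthase, was at -1.03 ± 0.39, and HMG1, a reductase that limits the mevalonate branch, at -0.90 ± 0.40. Of the members with a difference above 0, UPC2, a transcription factor of sterol genes, was at 0.74 ± 0.31, ERG1, squalene epoxidase, at 0.28 ± 0.31 and HMG2, the second reductase, at 0.25 ± 0.29.

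**Figure D2:**
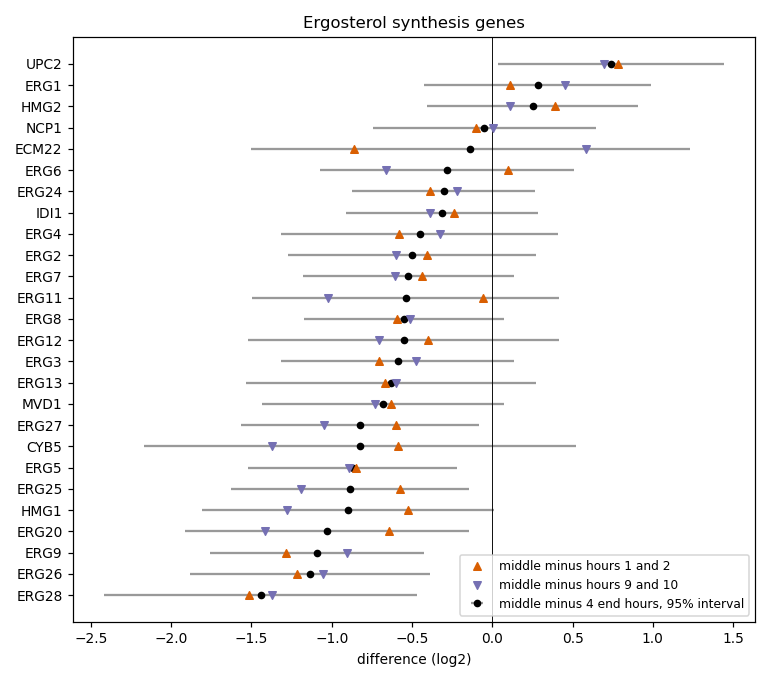
Difference of each of the 26 ergosterol genes between the middle hours and the end hours (log2, x axis), with circles and lines for the difference and its 95% interval in limma and triangles for the differences from hours 1 and 2 and from hours 9 and 10. Most circles lie below 0, from -1.44 for ERG28 to 0.74 for UPC2, and the 2 triangles of most genes lie on the same side of 0.

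Cytosolic ribosomal proteins had a median difference of 0.51 over 134 members, of which 127 were above 0. At an unadjusted p under 0.05, 14 were on the higher and 1 on the lower side, beside 3.84% and 4.14% of all ORFs. Against hours 1 and 2 the median was 0.95 and 92 members passed on the higher side, beside 8.74% of all ORFs. Against hours 9 and 10 the median was 0.082 and 1 member passed on the higher side, beside 2.83%. The median ratio was -1.20 and -1.0 at hours 1 and 2, -0.20 at hour 3, -0.26, -0.12, -0.16 and -0.18 at hours 4 to 7 and -0.030 and -0.44 at hours 9 and 10. The middle hours therefore stood apart from hours 1 and 2 and lay between hours 9 and 10, and without hour 1 the median difference was 0.27. RPL15B, of the large subunit, was at -2.28, -1.44, -1.75 and -1.80 in the middle and at -3.07, -3.11, -2.96 and -2.71 at the ends (1.15 ± 0.27). It stood above both ends, as did RPS14B, of the small subunit, at 0.72 ± 0.25, and RPL28 at 0.77 ± 0.27. These genes were picked for their small p. Of the 130 members with 8 values, 7 had all middle arrays above all end arrays, beside 2.48% of all ORFs. RPL15B and RPS14B each have a near-identical paralogue, as many ribosomal protein genes do, and a probe may read both.

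Ribosome biogenesis factors, 106 in number, had a median of 0.36, with 7 members on the higher and 1 on the lower side at an unadjusted p under 0.05, beside 3.84% and 4.14% of all ORFs. The median was 0.75 against hours 1 and 2 and 0.076 against hours 9 and 10, and 0.15 without hour 1 and 0.57 without hour 9. NOP7, needed for the large subunit, was at -0.090, 0.12, 0.30 and -0.12 in the middle and at -1.09, -0.77, -1.49 and -0.053 at the ends (0.90 ± 0.30), with hours 1 and 9 lowest. UTP11, of the small subunit processome, went the other way. It was at -3.06, -2.79, -3.27 and -2.73 and at -1.73, -2.25, -1.70 and -2.17 (-0.997 ± 0.22), below 0 on every array and lowest in mid course. Subunits of RNA polymerases I and III had a median of 0.40 over 24 members (2 on the higher and 0 on the lower side at an unadjusted p under 0.05, beside 3.84% and 4.14%), of 0.77 against the first and 0.16 against the last hours, and of 0.17 without hour 1 and 0.20 within even hours. RPC34, a subunit of RNA polymerase III, was at 0.74 ± 0.25.

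**Figure D3:**
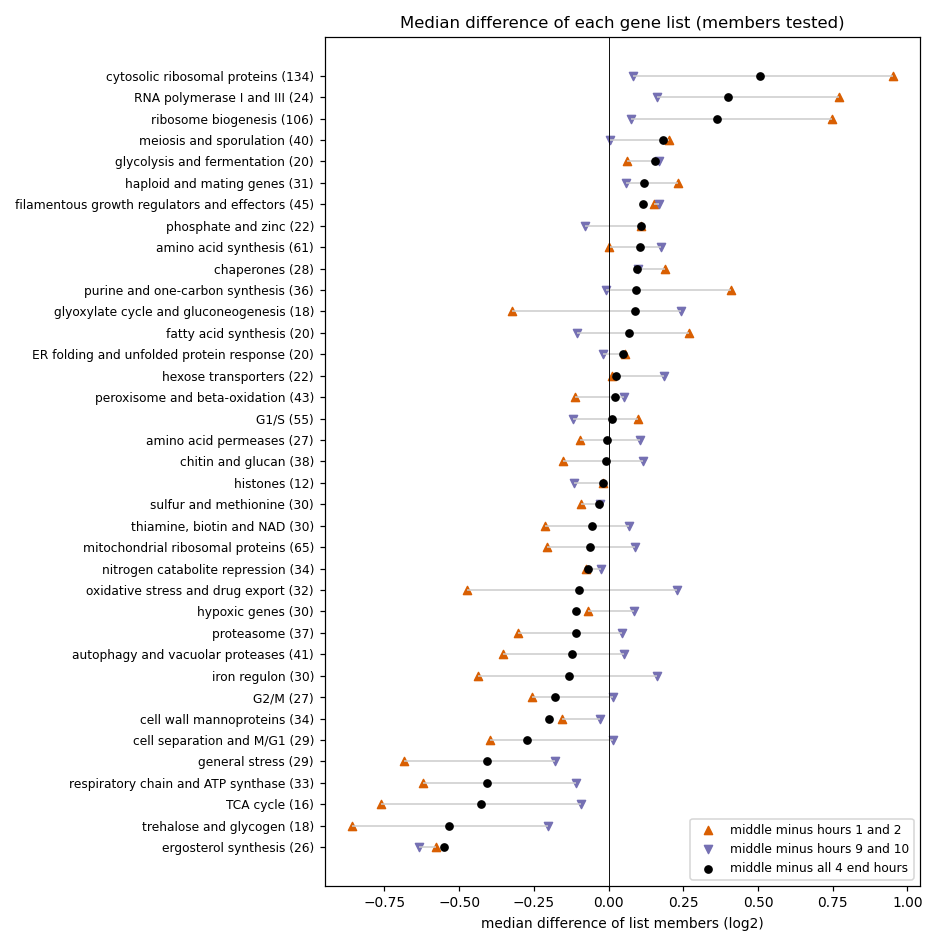
Median difference of the tested members of each of the 37 gene lists (log2, x axis, number of members in brackets), with circles for the middle against all 4 end hours and triangles for the middle against hours 1 and 2 and against hours 9 and 10. Ribosomal proteins reach 0.95 against the first hours and 0.082 against the last, while ergosterol synthesis lies at -0.58 and -0.63.

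General stress genes had a median difference of -0.41 over 29 members, with 5 members on the lower and 0 on the higher side at an unadjusted p under 0.05, beside 4.14% and 3.84% of all ORFs. The median was -0.69 against hours 1 and 2 and -0.18 against hours 9 and 10, and -0.70 without hour 9. The median ratio was 0.033, -0.023, -0.020 and 0.16 at hours 4 to 7 and 1.63, 0.68, 0.25 and 0.26 at hours 1, 2, 9 and 10. Every middle array thus lay below every end array, but narrowly, with 0.16 at hour 7 against 0.25 at hour 9. The list medians of the sides overlapped for all the other gene lists. Among so many lists such a separation can arise by chance, so it is no result about general stress genes. TPS1, trehalose phosphate synthase, was at 0.050, 0.020, -0.17 and -0.093 in the middle and at 1.94, 0.70, 0.23 and 1.29 at the ends (-1.09 ± 0.39). TPS1 is also a member of the trehalose and glycogen list, whose 18 members had a median of -0.54, with 3 on the lower and 0 on the higher side, beside the same shares. That median was -0.86 against the first and -0.20 against the last hours and -0.24 without hour 1, where the members' median ratio was 1.89. UGP1, which makes UDP-glucose, and TPS2, trehalose phosphatase, had differences of -1.08 ± 0.40 and -1.28 ± 0.55, which were -0.70 and -0.80 without hour 1.

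Among nuclear genes for respiratory complexes and the ATP synthase, 10 of 33 members were on the lower and 0 on the higher side at an unadjusted p under 0.05, beside 4.14% and 3.84% of all ORFs, with a median of -0.41. The median was -0.62 against hours 1 and 2 and -0.11 against hours 9 and 10, -0.59 within odd and -0.19 within even hours, and -0.21 without hour 1. RIP1, the iron-sulfur protein of complex III, was at -1.52, -1.24, -1.50 and -1.06 in the middle and at 0.27, 0.0100, -0.39 and -0.68 at the ends (-1.13 ± 0.28). COX8 and COX7, subunits of cytochrome oxidase, had differences of -1.21 ± 0.33 and -0.91 ± 0.29. All 3 had their middle arrays below all end arrays, with hour 1 the highest. They were picked for their small p. Of the 32 members with 8 values, 5 had no such overlap on the lower side, beside 2.69% of all ORFs. Genes of the TCA cycle had a median of -0.43 over 16 members, -0.76 against the first and -0.092 against the last hours, with 2 members, CIT3 and the succinate dehydrogenase subunit SDH3 at -0.71 ± 0.30, on the lower side, beside 4.14% of all ORFs. That median was -0.23 without hour 1, -0.65 without hour 9 and -0.19 within odd hours.

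**Figure D4:**
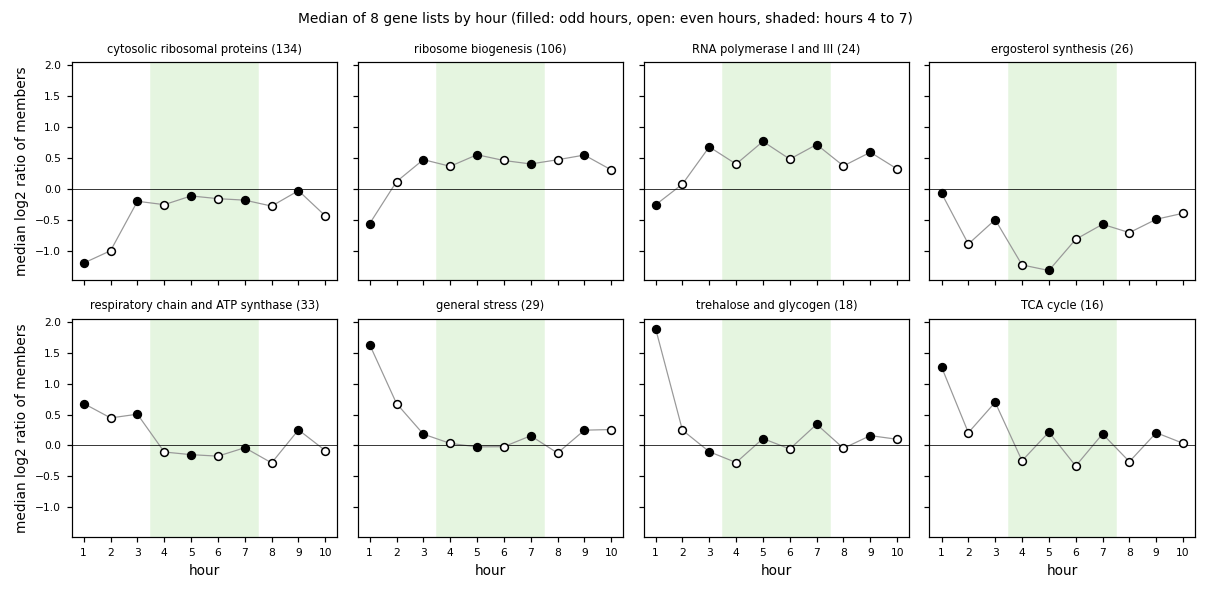
Median log2 ratio of the members of 8 gene lists (y axis) at each hour (x axis), with filled marks for odd and open marks for even hours and hours 4 to 7 shaded. The ribosomal protein median moves from -1.20 at hour 1 to -0.20 at hour 3 and stays between -0.44 and -0.030 from then on, while the ergosterol median is lowest at hours 4 and 5.

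The list of 45 regulators and effectors of filamentation had a median of 0.12, with 1 member on each side at an unadjusted p under 0.05. These counts are near the 3.84% and 4.14% of all ORFs and are no result about the list. These were DIG1, a repressor of Ste12, at 1.55 ± 0.62 and RAS2, the GTPase upstream of cyclic AMP, at -1.23 ± 0.47. DIG1 was at 3.41 at hour 6, had no value at hour 7 and had a difference of 0.83 without hour 6. RAS2 was at -2.51 and -2.13 at hours 4 and 5. At hours 6 and 7 it was at -0.81 and -0.78, among the end hours. The difference of RAS2 was -0.87 without hour 5 and -0.78 within even hours. FLO11, the adhesin that holds filaments together, was at 0.32, 2.19, 0.16 and 1.88 in the middle and at 0.076, 0.96, 1.04 and 0.15 at the ends. Its difference of 0.58 ± 0.44 (adjusted p = 0.707 in limma) was 1.48 within odd and -0.31 within even hours, since hours 5 and 7 were high and hours 4 and 6 were not, and it was 0.21 without hour 1, 0.92 without hour 2 and 0.34 without hour 5. CLN1, a G1 cyclin tied to cell elongation, was at 0.74, 1.92, 2.60 and 0.76 and at -0.19, -0.86, 0.10 and 2.01 (1.25 ± 0.67, adjusted p = 0.635). Hours 1 and 2 were low and hour 10 lay within the middle hours, so the difference was 2.04 against the first and 0.45 against the last hours, and 0.70 without hour 2.

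KSS1, the MAP kinase of this cascade, was at 2.89, 2.71, 2.94 and 2.50 in the middle and at 1.50, 2.31, 2.66 and 2.36 at the ends (0.55 ± 0.30, and 0.33 without hour 1), well above 0 on every array. STE12 and TEC1, the transcription factors at the end of the cascade, had differences of -0.79 ± 0.55 and -0.78 ± 0.50. Each had its highest value at hour 2, 2.62 for STE12 and 3.43 for TEC1, and without hour 2 the differences were -0.14 and -0.35. That of STE12 was -1.21 without hour 10. FLO8, the activator of FLO11 in the cyclic AMP pathway, and PHD1, a further regulator of filamentation, had differences of -0.44 ± 0.27 and -0.20 ± 0.38, PGU1, a secreted pectinase, of -0.058 ± 0.34, and the mitotic cyclin CLB2, with no value at hour 6, of 0.43 ± 0.31. Those of PHD1 and PGU1 turned sign with single arrays left out, and that of CLB2 was 0.27 without hour 5 and 0.65 without hour 7. Among genes of nitrogen supply, the ammonium permease and sensor MEP2, the general amino acid permease GAP1 and the GATA repressor DAL80 had differences of -0.28 ± 0.33, -0.35 ± 0.26 and -0.0074 ± 0.38. Without hour 1 these were -0.036, -0.23 and 0.30, and that of MEP2 was -0.094 without hour 7 and -0.45 without hour 9. DAL80 was between 2.61 and 3.78 in the middle and between 1.80 and 4.84 at the ends, so its values were high on both sides. The other ammonium permeases, MEP1 and MEP3, had differences of 0.73 ± 0.31 and 0.92 ± 0.31. The list of nitrogen catabolite repression had a median of -0.070 over 34 members, with 4 on the higher and 2 on the lower side at an unadjusted p under 0.05, beside 3.84% and 4.14% of all ORFs.

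**Figure D5:**
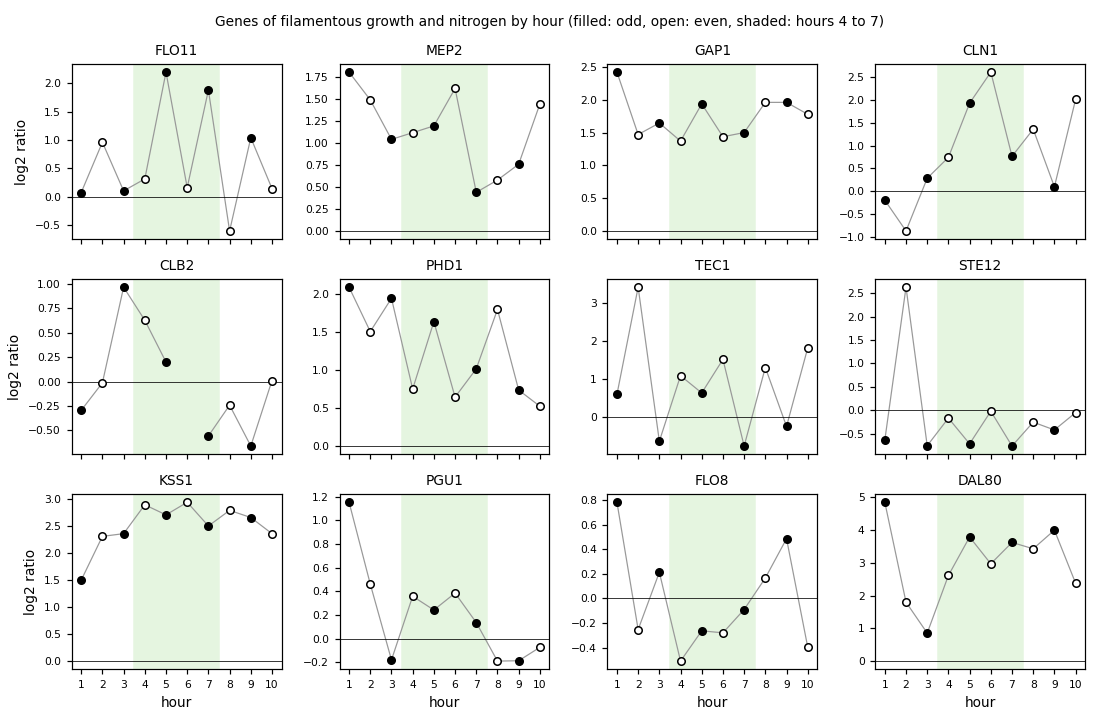
Log2 ratio (y axis, a separate scale for each gene) of 12 genes of filamentous growth and nitrogen at each hour (x axis), with filled marks for odd and open marks for even hours and hours 4 to 7 shaded. FLO11 reaches 2.19 and 1.88 at hours 5 and 7 but 0.32 and 0.16 at hours 4 and 6, and CLB2 has no value at hour 6.

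As markers of other cell types and fates that a diploid culture could hold, genes of haploid cells and mating had 0 of 31 members on the higher and 1 on the lower side at an unadjusted p under 0.05, with a median difference of 0.12, beside 3.84% and 4.14% of all ORFs. The median ratio of the list was between -0.26 and 0.033 on the middle arrays and between -0.48 and 0.14 on the end arrays, so the ranges overlap. Of its members, 20 had a difference above 0 and 11 below 0. The lowest was that of AGA1, at -2.28 ± 1.13. AGA1 was at 5.58 at hour 10, and its difference was -0.91 without that hour. Genes of meiosis and sporulation had 2 of 40 on the higher and 1 on the lower side, beside the same shares, with a median of 0.18, and list medians between -0.44 and -0.063 and between -0.25 and -0.065. The 3 were ZIP2 and MER1, of meiotic chromosome pairing and splicing, at 1.11 ± 0.31 and 1.29 ± 0.51, and IME2, a kinase of meiotic entry, at -1.47 ± 0.44. ZIP2 was at 1.17, -1.47, 0.48 and -1.09 in the middle and at -1.76, -0.69, -2.06 and -0.83 at the ends. Hours 5 and 7 thus lay among the end hours, and ZIP2 differed between odd and even hours (adjusted p = 0.0382 in limma). The gene overlaps the antisense transcript RME3 in RefSeq R64. MER1 and IME2 each lack values at hours 5 and 9, so that their values rest on 6 arrays. The difference of MER1 was 0.54 without hour 1 and 0.54 without hour 7. That of IME2 was -1.01 without hour 1 and -1.01 without hour 7. Ratios to the yeast form do not show how much of a transcript was present, so absence of these genes cannot be judged from them, and their part in the differences above was not tested.

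The kind of hour gave calls where the side did not. The term for odd against even hours in the same limma fit passed at an adjusted p under 0.05 for 148 of 5752 ORFs (2.57%), 106 higher and 42 lower in odd hours, while 0 passed for middle against ends. The labels name no batch that follows odd and even hours. Of the 30 genes named for their difference between middle and ends, each had the same sign within odd and within even hours, as the way they were chosen requires. The difference itself was tested as an interaction of side and kind of hour, on the 5048 ORFs with all 8 values. It passed for 0 of these ORFs in limma, with 195 at an unadjusted p under 0.05 and a smallest adjusted p of 0.769.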

How the data were processed

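The deposited table holds 1 log2 ratio per ORF and array, per the labels from arrays hybridized with both RNAs. The scanner, the dyes and the authors' normalization are not stated in the labels. Without spot intensities, signal over background is unknown. All 62920 values of the table as held here end in the same seventh decimal, 3, of unknown origin, which was dropped, leaving 6 decimals. After that, 3324 values (5.28%) were 0 and were taken as missing. The log base was settled by raising candidate bases to the deposited values. Base 2 gave whole ten-thousandths (tolerance 0.02) for 98.4% of values, base e for 4.6% and base 10 for 4.2%. Each array was centred on its median. The medians before centring ran from 0.12 to 0.39, and any centring by the authors is unknown. Names were matched to RefSeq R64, and 5792 of 6292 matched.

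ORFs with at least 3 values on each side were fitted in R 4.3.3 by lmFit and eBayes of limma 3.58.1, with side and odd or even hour as terms, in two-sided tests with Benjamini-Hochberg adjustment over all ORFs tested and a threshold of 0.05. A fit with 3 groups gave the contrasts with hours 1 and 2 and with hours 9 and 10. Where an ORF lacked a value on an array, that array was left out of its fit. Array properties were compared with exact permutation tests in scipy 1.17.1. The code was tested on simulated data. The genes named were the 15 highest and 15 lowest differences among genes past the threshold, filled, since none passed, with genes with a standard symbol, 8 values and no overlap of the sides, and also up to 3 members of each of 37 lists with the smallest p, and 12 genes of filamentation and nitrogen. Members of the G2/M list are given by counts, apart from CLB2. Of the other lists, not every member picked by this rule is named in the text. Other members of the ergosterol list were named after their values were seen. The comparison, the lists and the rules were chosen with earlier results of these data known. Promoter motifs were planned and not run, since no promoter sequence was used here. Alternatives covered scaling, zeros, missing values, odd and even hours, hour as a term, variance model, array weights and leaving out each array. Figures were drawn with matplotlib 3.10.9.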

Additional observations from a re-analysis of the deposited data

Results flagged for a closer look

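In groups of 4 arrays, a value was set apart when its gap to the nearest other array, divided by the range of the group, was above Dixon's critical value for groups of that size. Of 346 such groups of named genes and list medians 14 (4.05%) were set apart, and chance does this for about 1 in 20 groups. Among the end hours, hour 1 stood apart for HFD1 at 1.79, the TCA cycle gene LSC2 at 0.83, the RNA polymerase III subunits RPC31 at -2.20 and RPC37 at -1.16, and for the list medians of the TCA cycle at 1.27 and of trehalose and glycogen at 1.89. Hour 2 stood apart for CTR1 at 0.60 and for PEX7, an import receptor of peroxisomes, at -0.43. Hour 10 stood apart for PRE6, a proteasome subunit, at 3.28 and for MNN1, a mannosyltransferase, at 0.70. Among the middle hours, hour 4 stood apart for MTG2 at 2.34, for ARO8, an aromatic aminotransferase, at 0.28 and for AGA1, the anchor of a-agglutinin, at -0.25, and hour 7 for BNI5 at 1.40. No cause was tested for any of these values.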

How the results depend on the processing

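In all 22 alternatives, 0 ORFs passed an adjusted p under 0.05 for middle against ends in limma, with smallest adjusted p-values from 0.141 (hour as a further term) to 0.917 (odd hours alone), and 0 passed an adjusted p under 0.1 on the main setting. The contrasts with the first and with the last hours also gave 0 calls in the alternatives run for them. The count on the higher side at an unadjusted p under 0.05, 221, was 136 with odd hours alone, 142 with even hours alone, 146 with adjacent hours averaged and 137 to 386 with each array left out. The count on the lower side, 238, was 140 with odd hours alone and 155 to 363 with each array left out. With each array left out, the lowest counts were without hour 5 and the highest without hour 9. With odd or even hours alone 2 arrays stand against 2, so fewer arrays were fitted, and the cause of the other moves was not tested. Signs turned for few of the named genes, each with a small or uneven difference. On the main setting the difference was -0.80 for HRD3, -0.42 for HHF1 and 1.38 for INO2, and those of the others are given above. Within even hours it was 0.12 for HRD3, 0.010 for HHF1, -0.31 for FLO11, 0.18 for PGU1 and 0.70 for DAL80. For INO2 it was -0.25 within odd and 3.01 within even hours. For DAL80 it was also 0.22 with arrays of equal spread, 0.0067 with zeros kept and 0.12 with array weights. With each array left out it ran from -0.27 to 0.30 for DAL80, from -0.49 to 0.045 for PHD1 and from -0.28 to 0.26 for PGU1. The cause was not tested. The median of trehalose and glycogen, -0.54, was below that of ergosterol synthesis, -0.55, in some alternatives, at -0.74 against -0.61 without hour 9 and -0.55 against -0.34 without hour 5, so the order of the 2 lists depends on the arrays. Promoter motifs were not run. Signal over background is unknown, and 4 arrays a side limit the precision.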

Other observations

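Some genes of the gene lists not described above are given here by their values. Other members are not named, and some of them had a smaller p than genes given here. None of these genes passed an adjusted p under 0.05 in limma. HXT5, a hexose transporter of slow growth, was at 1.07, 1.23, 1.97 and -0.076 at hours 4, 5, 6 and 7 and at -0.92, -0.017, -1.16 and 0.23 at hours 1, 2, 9 and 10, a difference of 1.51 ± 0.36 (standard error, limma). JLP1, which releases sulfite from sulfonates, was at 2.01, 1.96, 3.59 and 0.027 and at -1.42, 1.28, -0.54 and 0.66 (1.90 ± 0.52), with hour 7 near 0. TIR1, a wall mannoprotein of cold and low oxygen, was at -0.77, -0.13, 0.32 and 0.073 and at -1.38, -0.91, -1.15 and -1.28 (1.05 ± 0.31), whereas HPF1, another wall mannoprotein, was at -0.94 ± 0.31. Both had middle and end arrays that did not overlap, and both were picked for their small p. Of the 32 wall mannoprotein genes with 8 values, 2 had no overlap on the higher and 2 on the lower side. The shares of all ORFs were 2.48% and 2.69%. POL2, the catalytic subunit of DNA polymerase epsilon, was at 1.19 ± 0.33 and SWI6, a cofactor of G1 transcription, at 0.92 ± 0.32. FET3, a multicopper oxidase of iron uptake, was at -3.27, -3.06, -2.92 and -2.63 and at -2.03, -2.29, -2.38 and -2.31 (-0.71 ± 0.25). CTR1, which brings in the copper that Fet3 needs, was on the higher side and FET3 on the lower. A link between these differences was not tested. The aminopeptidase APE1 and its receptor ATG19 had differences of -1.44 ± 0.41 and -1.27 ± 0.38, which were -1.02 and -0.95 without hour 1. In contrast, ATG4, a protease of autophagy with no value at hour 1, was at 2.37 ± 0.57. It was at 3.64, 0.82, 3.49 and -0.12 in the middle and at 1.37, -0.97 and -0.36 at hours 2, 9 and 10. Hours 5 and 7 thus lay within the range of the end hours. GTT2, a glutathione transferase on the higher side at 1.48 ± 0.41, and GTT1 at -0.88 ± 0.32 stood on opposite sides. GTT2 was also among the genes that differed between odd and even hours (adjusted p = 0.0363 in limma).

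At an unadjusted p under 0.05, the members on the higher and on the lower side were 1 and 6 of 41 (median -0.12) for autophagy and vacuolar proteases, 2 and 3 of 32 (median -0.099) for oxidative stress and drug export, 4 and 5 of 55 (median 0.012) for G1/S, 0 and 1 of 27 (median -0.18) for G2/M and 0 and 1 of 29 (median -0.27) for cell separation. They were 2 and 3 of 34 (median -0.20) for wall mannoproteins, 2 and 0 of 38 (median -0.0074) for chitin and glucan, 3 and 1 of 30 (median -0.11) for hypoxic genes, 1 and 2 of 30 (median -0.13) for the iron regulon and 1 and 2 of 22 (median 0.11) for phosphate and zinc. In metabolism they were 1 and 1 of 61 (median 0.10) for amino acid synthesis, 1 and 0 of 30 (median -0.032) for sulfur and methionine, 3 and 0 of 36 (median 0.091) for purine and one-carbon synthesis, 2 and 1 of 30 (median -0.055) for thiamine, biotin and NAD, 0 and 1 of 20 (median 0.067) for fatty acids and 0 and 0 of 43 (median 0.022) for peroxisomes. They were 0 and 1 of 20 (median 0.15) for glycolysis, 0 and 0 of 18 (median 0.088) for gluconeogenesis, 1 and 0 of 22 (median 0.026) for hexose transporters and 0 and 1 of 27 (median -0.0041) for amino acid permeases. The remaining lists had 0 and 3 of 65 (median -0.062) for mitochondrial ribosomal proteins, 1 and 1 of 28 (median 0.096) for chaperones, 0 and 0 of 20 (median 0.050) for folding in the endoplasmic reticulum, 1 and 1 of 37 (median -0.11) for the proteasome and 0 and 0 of 12 (median -0.019) for histones. Over all ORFs the corresponding shares were 3.84% and 4.14%, and the median was 0.02. For cell separation, 20 of the 29 members had a difference below 0, and its median was -0.17 without hour 1, -0.17 without hour 2, -0.18 without hour 5 and -0.45 without hour 9. Against hours 1 and 2, 8 of the 32 members of oxidative stress and drug export were on the lower side, beside 6.95% of all ORFs, with a median of -0.47. Against the same hours, 9 of the 36 members of purine and one-carbon synthesis were on the higher side, beside 8.74% of all ORFs, with a median of 0.41. The medians of these 2 lists against hours 9 and 10 were 0.23 and -0.0087. Of the 41 members of autophagy and vacuolar proteases, 3 were on the higher and 8 on the lower side of hours 1 and 2 (median -0.35). Against hours 9 and 10 these counts were 2 and 0 (median 0.050). The shares of all ORFs were 8.74% and 6.95% for the first hours and 2.83% and 3.44% for the last. Members of the hexose transporter and histone lists have near-identical paralogues, and a probe may read several of them.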
